A study of Mus musculus with 16 samples.

Results

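The genes described here encode the junctions that hold airway epithelial cells together: claudins, other tight junction proteins, connexins, desmosome proteins, and adherens junction and adhesion proteins. They were chosen by gene symbol alone. Members are symbols that start with Cldn, Tjp, Gja, Gjb, Dsg, Dsc or Pkp and go on with a digit, and Ocln, F11r, Marveld2, Marveld3, Cgn, Cdh1, Dsp, Jup, Ctnna1, Ctnnb1, Nectin4 and Epcam. The members described here are 72 such genes of the mouse annotation. A probe on the array was matched to 57 of them, out of 17178 named genes with a probe. Of these, 41 passed a filter on dim signals and were tested among 18566 genes and unnamed transcripts. The tested members were 15 claudins, 6 other tight junction genes, 8 connexins, 7 desmosome genes and 5 genes of adherens junctions and adhesion.

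RNA came from airway epithelium collected by brushing from FvB mice that were wild type (wt) or lacked the integrin gene Itgb6 (ko). Its product, the beta6 subunit, helps activate latent TGF-beta on epithelial cells. Mice aged 6 to 8 weeks were sensitized through the peritoneum with 20 ug of ovalbumin (OVA), an egg protein used as an allergen, or with saline, on days 1, 4 and 7. They were then challenged through the nose with 10 ug of OVA or with saline every week for 9 weeks, and the epithelium was taken 24 h after the last challenge. The groups are wt saline, wt OVA, ko saline and ko OVA, with 4 one-colour arrays each. The labels give no promoter or Cre driver for the knockout, and they do not say whether an array holds RNA of 1 mouse or of several. The p-values therefore measure only the spread between these samples.

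Tight junctions seal the space between cells near the lumen. Claudins set which ions and how much water pass there, occludin and the Marvel-domain proteins add to the strands, and the Tjp scaffold proteins anchor them to actin. Connexins form gap junctions, through which neighbouring cells exchange small molecules and calcium signals. Adherens junctions, built on E-cadherin and catenins, and desmosomes, built on desmogleins, desmocollins and plakophilins, carry mechanical load. In the airway this barrier keeps inhaled allergen from the tissue below.

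Values are log2 signals set relative to each array's own 75th percentile, so 1 unit is a doubling, and a common floor of -3.32 stands for signals too dim to place. The 75th percentile lay between 78.0 and 793 intensity units, and 43.3% to 74.5% of probes were well above background. The arrays wt_OVA 1 (74.5%) and wt_OVA 2 (72.7%) were highest in this share and ko_OVA 4 (43.3%) was lowest. A list of 11 epithelial markers had a mean level of 4.27 to 4.63 on all 16 arrays. The brightest Itgb6 probe lay between -0.93 and -0.39 on wt saline arrays and between -1.02 and -0.73 on ko saline arrays, which overlapped. After OVA it lay between -0.64 and -0.56 in wt and between -1.71 and -0.96 in ko, which did not overlap, and the difference of -0.58 ± 0.16 was not called by limma (adjusted p 0.547). The labels do not say which part of the gene was deleted, so this checks nothing about the labels. A set of 8 mast cell genes had a mean of -1.88 to -1.14 after saline in wt and of 2.23 to 2.59 after saline in ko.

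Junction genes of every family gave signal in the epithelium. Of the 41 members tested, 30 were well above background on every array that measured them, among them all 7 desmosome genes, all 6 other tight junction genes and all 5 of adherens junctions and adhesion. That held for 9 of 15 claudins and 3 of 8 connexins. The 16 members not tested were Cldn1, Cldn6, Cldn11, Cldn13, Cldn16, Cldn17, Cldn19, Cldn34b2, Cldn34b3, Dsc1, Dsg1a, Dsg1b, Dsg3, Dsg4, Gja3 and Gja6. Each was well above background on 0 to 3 of 16 arrays, mostly on wt_OVA 1 and wt_OVA 2. Several of them, such as the desmogleins Dsg1a and Dsg3, are known from skin and other stratified epithelia. The adhesion gene Cdh1 was the least reproducible of the bright members: it ran from 1.4 to 3.36, with a spread within groups of 0.71 (SD), against 0.09 for the plakophilin gene Pkp2.

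**Figure D1:**
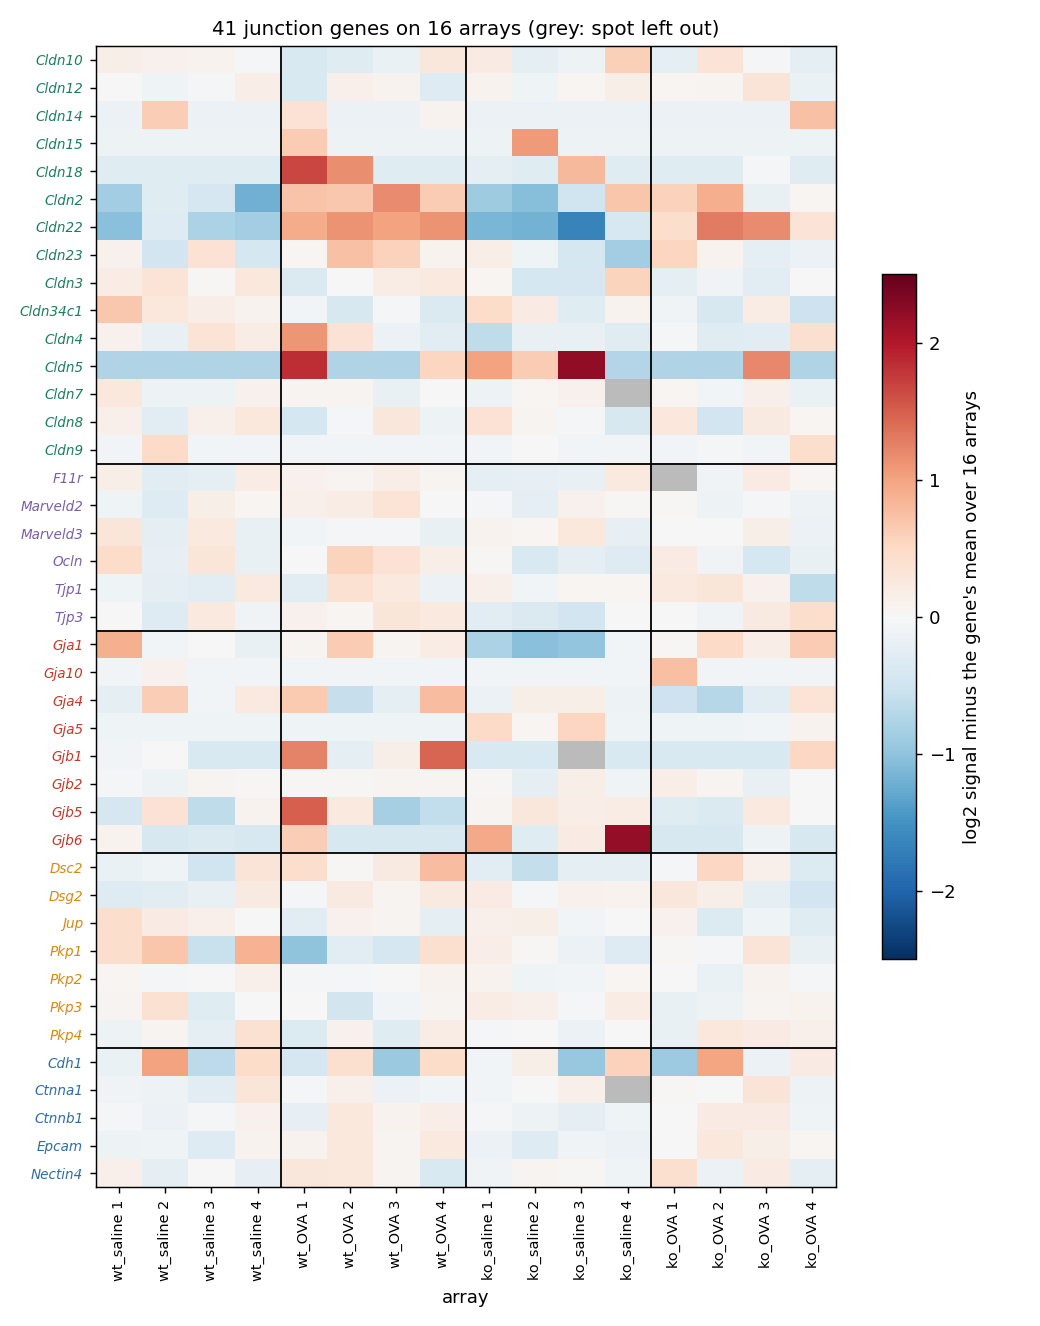
Each row is 1 of the 41 junction genes tested, coloured by family, and each column is 1 of 16 arrays. The colour is the log2 signal minus the mean of that gene over the arrays. Of the 41 rows, Cldn22 and Cldn2 have the largest differences between saline and OVA averaged over genotypes (1.86 and 1.13), from blue to red, and Epcam has a much smaller one (0.29).

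OVA changed few junction genes, and 2 claudins led. In wt, 2 of 41 members passed limma's test with Benjamini-Hochberg adjustment over all genes at 0.05, against 2.61% of all genes tested. Cldn22 and Cldn2 rose. In ko, Cldn22 alone passed, 1 of 41 against 0.749% of all genes. With both genotypes averaged, 3 of 41 passed against 6.46%: Cldn22, Cldn2 and Epcam were higher after OVA. At an unadjusted p under 0.05 there were 9 members in wt, 7 in ko and 10 averaged over genotypes, against 16.5%, 9.73% and 19.7% of all genes. These counts are small and near the shares of all genes, so nothing particular to junction genes is read from them. The median difference over the 41 members was 0.08 in wt and 0.03 in ko on the log2 scale, and over all genes it was 0.00 in both.

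No member was called between the genotypes by limma. After saline, ko against wt gave 0 of 41, against 0.162% of all genes. At an unadjusted p under 0.05 limma held 4 members, against 6.3% of all genes. After OVA the count was 0, against 0.145%, with 2 members under 0.05 unadjusted, against 5.08%. Averaged over both agents it was 0, against 0.269%, with 3 members under 0.05 unadjusted, against 7.77%. The interaction, which asks whether the OVA difference depends on genotype, gave 0 of 41 and 0% of all genes. At an unadjusted p under 0.05 it held 2 members, against 3.06% of all genes. Among the 30 members measured above background throughout, the 95% interval of the genotype difference lay within 1 log2 unit of 0 for 26 after saline and for 27 after OVA, and within 0.5 units for 15 and 15. Mast cell genes did differ between the genotypes: 7 of 8 were higher in ko after saline and 6 of 8 after OVA. Their part in the values of junction genes was not tested.

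**Figure D2:**
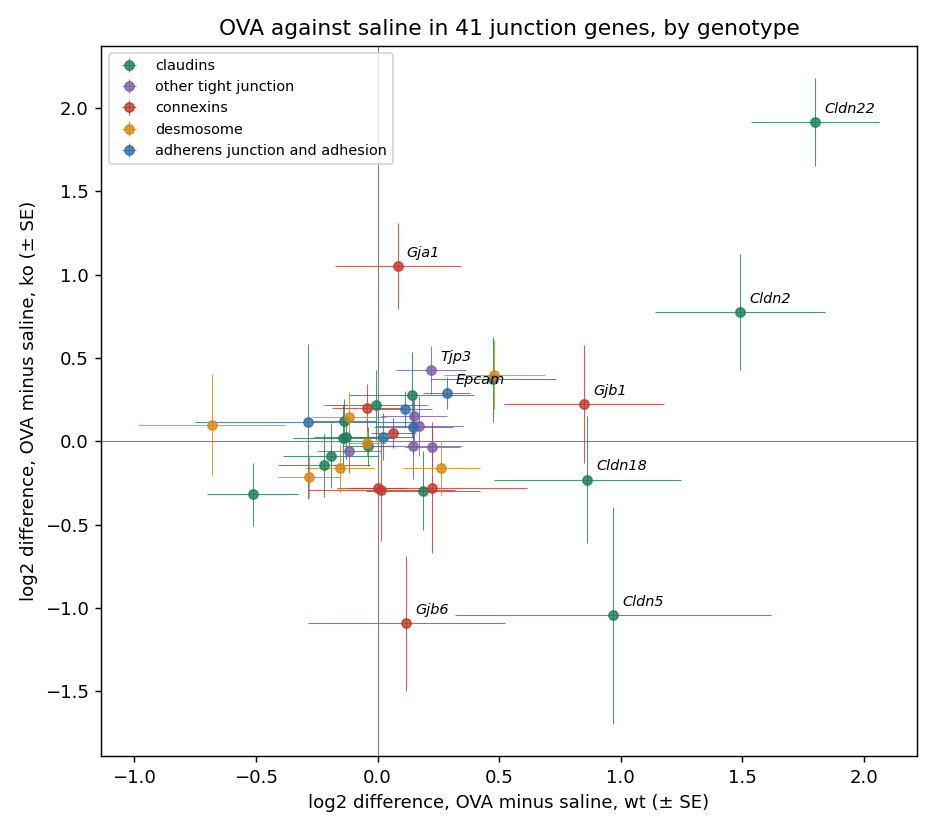
Each point is 1 of 41 junction genes, coloured by family, with the log2 difference between OVA and saline in wt on the horizontal axis and in ko on the vertical axis. Bars are standard errors. Cldn22 lies far from the others in both genotypes (1.80 and 1.91), whereas most genes lie near 0.

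Counts of genes whose groups did not overlap were as small. In wt, 3 of 41 members had no overlap between saline and OVA arrays, namely Cldn22, Cldn2 and Cldn34c1, against 9.28% of all genes. In ko there were 3, Cldn22, Epcam and Gja1, against 5.23%. Over all 8 saline and 8 OVA arrays Cldn22 alone did not overlap, against 1.15%. Between genotypes, Cldn5 alone did not overlap after saline, against 4.05% of all genes, and no member did so after OVA, against 2.37%, or over both agents, against 0.194%.

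Cldn22, a claudin of which little is known, had the largest difference among the members. Its log2 signal was 2.10, 2.83, 2.37 and 2.28 on the wt saline arrays and 4.07, 4.27, 4.17 and 4.27 on the wt OVA arrays. The ko arrays had 2.0, 1.98, 1.48 and 2.75 after saline and 3.58, 4.45, 4.34 and 3.49 after OVA. Every OVA array lay above every saline array, in both genotypes, and the wt OVA arrays lay closest together. The rise was 1.80 ± 0.26 (SE) in wt, or 3.48-fold, with a limma adjusted p of 0.00273, and 1.91 ± 0.26 in ko, or 3.77-fold, with an adjusted p of 0.00305. The genotypes did not differ detectably in this rise: the interaction was 0.12, with a 95% interval from -0.69 to 0.92. Within the slides that held both groups, it was 1.75 to 2.16 in wt and 1.58 to 2.72 in ko. The call was lost in wt when arrays were scaled to their median (1.52, limma adjusted p 0.0548) or when the position on the slide was a block (1.67, 0.0506), and in ko when the arrays of those 2 groups alone were fitted (1.91, 0.158).

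Wwc2, a gene at the Cldn22 locus, did not move together with Cldn22. How these genes and their probes lie to each other was not examined. Wwc2 was lower by 0.41 ± 0.11 with OVA averaged over genotypes (limma adjusted p 0.0343), where Cldn22 was higher by 1.86 ± 0.19 (adjusted p 5.67e-05).

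Cldn2 forms pores for small cations and water, and it rose in wt, a call that depended on the setting. There its log2 signal was -1.98, -1.41, -1.53 and -2.32 after saline and -0.41, -0.45, 0.06 and -0.49 after OVA. For ko the values were -2.01, -2.19, -1.62 and -0.42 after saline and -0.55, -0.21, -1.30 and -1.06 after OVA. The wt groups did not overlap, while ko_saline 4 lay among the OVA arrays. The difference was 1.49 ± 0.35 in wt, or 2.81-fold (limma adjusted p 0.0376), and 0.78 ± 0.35 in ko (0.485). The interaction was -0.71, with a 95% interval from -1.77 to 0.35, so a difference between genotypes was not detectable. Within slides the wt values were 1.36 to 1.87, but those in ko were -0.89, 1.47 and 1.69.

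The wt call of Cldn2 held under 17 of 31 alternatives, with values from 1.03 to 1.66 over all of them. It was lost with normexp background correction (1.03, limma adjusted p 0.166), median scaling (1.21, 0.232), and slide (1.49, 0.101), position (1.58, 0.181) or replicate number (1.49, 0.0785) as a block. It was also lost without wt_OVA 1, wt_OVA 2 and ko_OVA 4 together (1.60, limma adjusted p 0.178). Of single arrays, it was lost without wt_saline 1 (adjusted p 0.107 by limma), wt_saline 2 (0.0614), wt_saline 4 (0.0961), any one of wt_OVA 1 (0.0909), wt_OVA 2 (0.0673), wt_OVA 3 (0.116) and wt_OVA 4 (0.0596), or ko_saline 3 (0.0532). Without any one of these arrays the difference stayed between 1.32 and 1.62. Averaged over genotypes, the difference of 1.13 ± 0.25 (limma adjusted p 0.0146) was not called with slide (1.13, 0.0597) or position (1.15, 0.115) as a block, with median scaling (1.00, 0.124) or without those 3 arrays (1.23, 0.0709).

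Cldn22, Cldn2 and Epcam (described below) were the members higher with OVA averaged over genotypes, so their promoters are printed. They are the 250 bases before the annotated start, 5′ to 3′, from RefSeq on GRCm38.p6. All lie on the forward strand, at chr8:47824232-47824481, chrX:139800558-139800807 and chr17:87635729-87635978, and capitals mark motif matches.
Cldn22: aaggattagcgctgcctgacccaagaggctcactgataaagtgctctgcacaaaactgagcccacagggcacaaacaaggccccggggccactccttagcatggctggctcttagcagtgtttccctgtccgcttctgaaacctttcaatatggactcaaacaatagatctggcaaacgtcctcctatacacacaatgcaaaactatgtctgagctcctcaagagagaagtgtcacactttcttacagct
Cldn2: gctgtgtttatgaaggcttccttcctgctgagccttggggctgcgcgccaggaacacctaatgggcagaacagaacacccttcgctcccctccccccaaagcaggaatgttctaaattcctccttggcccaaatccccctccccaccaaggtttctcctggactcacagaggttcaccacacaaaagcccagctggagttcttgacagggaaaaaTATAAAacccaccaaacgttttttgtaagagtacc
Epcam: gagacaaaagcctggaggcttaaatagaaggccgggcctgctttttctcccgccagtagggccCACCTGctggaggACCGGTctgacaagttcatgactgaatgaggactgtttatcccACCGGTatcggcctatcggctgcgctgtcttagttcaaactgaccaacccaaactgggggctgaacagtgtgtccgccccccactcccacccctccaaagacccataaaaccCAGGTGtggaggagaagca
Both strands were searched for TTC and GAA with 4 bases between (a STAT6-type site), TGANTCA (AP-1), CAGGTG (E-box), ACCGGT (grainyhead-type), TATAAA (the box that binds TBP) and GTTAAT and ATTAAC with 1 base between (HNF1-type). Of 32851 annotated promoters of this length, 5.85% held the first, then 6.75%, 17.2%, 1.86%, 12.4% and 0.00913%. Cldn2 held TATAAA, with its first base 35 bases before the start. Epcam held CAGGTG 19 bases before the start, its reverse complement CACCTG at 187 bases, and ACCGGT at 174 and 131 bases. None of the 6 motifs was found in the Cldn22 window.

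**Figure D3:**
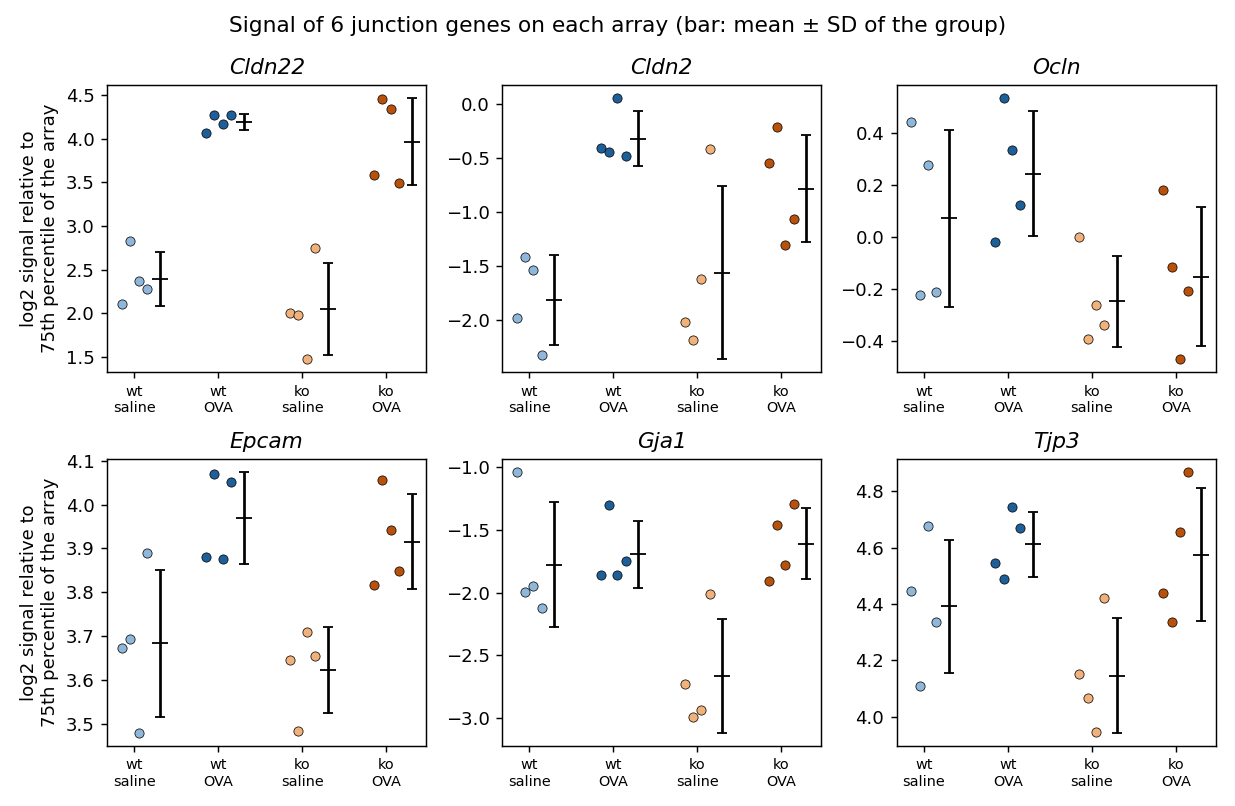
Points are the log2 signals of single arrays for 6 junction genes, by group, on axes that differ between genes. The bar beside each group is its mean ± SD. Cldn22 is between 1.48 and 2.83 on all saline arrays and between 3.49 and 4.45 on all OVA arrays.

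The other claudins differed little. Cldn3, a sealing claudin, ran from 5.87 to 6.88 over all arrays, and its difference with OVA was -0.19 ± 0.20 in wt and -0.08 ± 0.20 in ko. Cldn7, a claudin of the lateral membrane that binds Epcam, ran from 5.69 to 6.12 on the 15 arrays that measured it (its spot on ko_saline 4 was left out). Cldn4, another sealing claudin, was -0.55, -0.85, -0.32 and -0.47 after saline and 0.43, -0.30, -0.80 and -0.96 after OVA in wt, and -1.30, -0.84, -0.84 and -0.97 and then -0.68, -0.96, -0.93 and -0.26 in ko. All groups overlapped, the saline groups of the genotypes only between -0.85 and -0.84. The ko value averaged over agents was -0.37 ± 0.18 (limma adjusted p 0.674). Cldn10, Cldn12, Cldn8 and Cldn23 had differences from -0.22 to 0.47 in wt and -0.14 to 0.37 in ko, none of them called. Cldn9, Cldn14, Cldn15 and Cldn34c1 were near the floor, with highest values of -2.77, -2.44, -2.14 and -2.12. Cldn34c1, a claudin of which little is known, was -2.12, -2.53, -2.62 and -2.69 after saline and -2.86, -3.19, -2.81 and -3.15 after OVA in wt, and -2.33, -2.59, -3.09 and -2.71 and then -2.87, -3.20, -2.61 and -3.30 in ko. Its wt OVA arrays all lay below its wt saline arrays, while those of ko overlapped. The difference was -0.51 ± 0.19 in wt and -0.41 ± 0.13 averaged over genotypes (limma adjusted p 0.179 and 0.0831).

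Cldn5, the claudin of the blood vessel barrier, was dim and uneven. It was at the floor on all 4 wt saline arrays and on 2 of 4 wt OVA arrays, where wt_OVA 1 had -0.72 and wt_OVA 4 had -2.04. In ko it was -1.56, -1.94, -0.36 and -3.30 after saline, and -1.38 on ko_OVA 3, with the other ko OVA arrays at the floor. All ko saline arrays were thus above the floor and no wt saline array was, although the spot was well above the local background on 3 of 4 wt saline arrays. With a lower floor, the wt saline arrays lay between -4.05 and -3.42, still below ko_saline 4, the lowest ko saline array. In the deposited series table, which has no floor, the saline groups of the genotypes overlapped, with 5.97 on wt_saline 3 and 5.95 on ko_saline 4. The fitted differences, which depend on the floor, were 1.53 ± 0.65 for ko against wt after saline (limma adjusted p 0.770) and -2.01 ± 0.92 for the interaction (0.993).

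Vessel markers were high together with Cldn5 on some arrays and not on others. Of 10 endothelial genes 8 were tested, and 3 were well above background on all arrays. The mean of the 8 was -2.14 to -1.77 in wt saline, -2.38 to -1.30 in wt OVA, -1.98 to -1.33 in ko saline and -2.57 to -1.84 in ko OVA, with its highest values on wt_OVA 1 (-1.30) and ko_saline 3 (-1.33). Cldn5 was highest on wt_OVA 1 and ko_saline 3 too. On ko_OVA 3, however, Cldn5 was -1.38 and the mean was -1.84. That mean was below the one of wt_saline 4 (-1.77), where Cldn5 was at the floor. Kdr, a receptor for vascular growth factor, fell with OVA in ko (-2.25, limma adjusted p 0.0453) and averaged over genotypes (-1.99, 0.00301). None of the 8 was called in wt, where their median difference was 0.22, against -0.38 in ko. Their part in the Cldn5 values was not tested. In such bulk RNA, fewer cells of a type and less RNA per cell cannot be told apart.

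Cldn18, whose lung form marks the alveolar epithelium, was also near the floor. It was above it on wt_OVA 1 (-1.34), wt_OVA 2 (-1.84), ko_saline 1 (-3.26), ko_saline 3 (-2.20) and ko_OVA 3 (-3.05), and at the floor on the other arrays. The difference of ko from wt after OVA was -0.79 ± 0.38 (limma adjusted p 0.884), and it turned to 0.0898 without wt_OVA 1, wt_OVA 2 and ko_OVA 4. The mean of 10 alveolar genes was 0.93 to 1.89 in wt saline and 2.01 to 2.5 in ko saline, and 1.27 to 1.89 and 1.23 to 1.86 after OVA in wt and ko. Their part in the Cldn18 values was not tested.

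Among the other tight junction genes none was called in any comparison of the reported fit. Ocln, the gene of occludin, was 0.44, -0.22, 0.28 and -0.21 after saline and -0.02, 0.53, 0.33 and 0.12 after OVA in wt. Arrays of ko gave 0.00, -0.39, -0.26 and -0.34 after saline and 0.18, -0.12, -0.47 and -0.21 after OVA. The ko arrays were lower on average but overlapped with wt after both agents. The difference averaged over agents was -0.36 ± 0.13, with an adjusted p of 0.498 by limma.

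Tjp3, a scaffold of the zonula occludens, was 4.45, 4.11, 4.68 and 4.33 after saline and 4.54, 4.49, 4.74 and 4.67 after OVA in wt. In ko it was 4.15, 4.06, 3.94 and 4.42 after saline and 4.44, 4.34, 4.66 and 4.87 after OVA. Saline and OVA arrays overlapped in both genotypes. The differences were 0.22 ± 0.14 in wt and 0.43 ± 0.14 in ko (limma adjusted p 0.497 and 0.267). Averaged over genotypes it was 0.32 ± 0.10 (0.0760). It was called without wt_saline 3 (0.37, limma adjusted p 0.0430), without ko_saline 4 (0.37, 0.0415) or with array weights (0.32, 0.0271). Marveld2, the gene of tricellulin, which closes the corners between 3 cells, was -0.04, -0.26, 0.21 and 0.12 after saline and 0.19, 0.26, 0.41 and 0.08 after OVA in wt. In ko it was 0.02, -0.17, 0.18 and 0.11, then 0.11, -0.06, 0.02 and -0.07, so that the groups overlapped. Its difference of ko from wt after OVA was -0.24 ± 0.11 (limma adjusted p 0.884), which turned to 0.11 when arrays were scaled to their median. That scaling also moved the median of all genes in this comparison to 0.32. F11r, the gene of the junctional adhesion molecule JAM-A, and Tjp1 and Marveld3 had OVA differences from -0.12 to 0.15 in wt and -0.06 to 0.15 in ko.

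None of the 8 connexin genes described here was called in the reported fit, though some alternatives called Gja1 or Gja5. Gja1, the most widely expressed connexin gene of mammalian tissues, was lower on average in ko than in wt after saline, but these groups overlapped. Its log2 signal after saline was -2.73, -2.99, -2.93 and -2.01 in ko, against -1.04, -2.0, -1.95 and -2.12 in wt. The array ko_saline 4 thus lay above wt_saline 4. After OVA it was -1.91, -1.46, -1.78 and -1.29 in ko and -1.86, -1.30, -1.86 and -1.75 in wt. All ko OVA arrays lay above all ko saline arrays, while wt arrays overlapped. The difference with OVA was 1.05 ± 0.26 in ko (limma adjusted p 0.0921) and 0.08 ± 0.26 in wt (0.907), and ko differed from wt after saline by -0.89 ± 0.26 (0.438). The interaction of 0.97 ± 0.37 had an adjusted p of 0.993 by limma.

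The call of Gja1 in ko depended on the setting. With array weights limma called it (1.15, adjusted p 0.0296), and also ko against wt after saline (-1.14, 0.0477). The OVA difference in ko also passed limma's test without wt_saline 1 (1.05, adjusted p 0.0382), which left the estimate as it was. The same held without ko_saline 4 (1.27, 0.0341). Within slides the ko difference was 0.23, 0.82 and 1.5. Basal cells of the airway are among those that carry this connexin, and the mean of 8 basal cell genes was 3.44 to 4.28 in wt saline, 3.43 to 3.78 in wt OVA, 2.33 to 3.73 in ko saline and 3.21 to 3.96 in ko OVA. None of the 8 was called in any comparison, and their part in the Gja1 values was not tested.

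Gjb2, a connexin gene of many secretory epithelia, was the steadiest connexin, between 0.33 and 0.71 on all arrays. Gjb1, a connexin gene of liver and glands, was dim. It was -3.01 and -2.92 on wt_saline 1 and 2 and at the floor on the other wt saline arrays, and -1.70, -3.17, -2.80 and -1.49 on the wt OVA arrays. In ko it left the floor on ko_OVA 4 (-2.42) alone, with the spot on ko_saline 3 left out. The Gjb1 spots on ko_OVA 4 and wt_saline 2 were not well above background, however. Those on ko_saline 1, ko_saline 2, ko_OVA 1, ko_OVA 2 and ko_OVA 3 were, although their values sat at the floor. Its difference of ko from wt after OVA was -0.80 ± 0.33 (limma adjusted p 0.884). Gjb6, a connexin gene of the inner ear and skin, was -2.83 and -3.27 on wt_saline 1 and 3, -2.31 on wt_OVA 1, -1.97, -3.23, -2.72 and -0.72 on the ko saline arrays, and -3.05 on ko_OVA 3, with all other arrays at the floor. After saline ko was higher than wt in the fit by 1.02 ± 0.41 (limma adjusted p 0.716), with ko_saline 4 highest. Another Gjb6 probe, too dim to be kept, was well above background on 3 of 4 ko saline arrays and on 0 in each other group. That probe left the floor on ko_saline 4 alone (-2.47). Gjb5, a connexin gene known from stratified epithelium, had OVA differences of 0.22 ± 0.39 in wt and -0.28 ± 0.39 in ko. The mean of 9 squamous and oesophageal genes was -0.86 to -0.17 in wt saline, -0.97 to -0.49 in wt OVA, -1.0 to -0.71 in ko saline and -0.88 to -0.44 in ko OVA, and its part in the Gjb5 values was not tested. Gja10, a connexin gene of retina, was well above background on 4 of 16 arrays.

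Gja5, a connexin gene of arteries and heart, depended on how its dim signal was read. The probe that stood for it was well above background on 0 of 4 wt saline arrays, 2 of 4 wt OVA arrays, 4 of 4 ko saline arrays and 2 of 4 ko OVA arrays. On the floored scale it left the floor at -2.75, -3.17 and -2.69 on ko_saline 1, 2 and 3, at -3.29 on ko_OVA 3 and at -3.12 on ko_OVA 4. No wt array did so. The spot on ko_OVA 4 was not well above background, while that on ko_OVA 1 was, although its value sat at the floor. After saline, ko was 1.26-fold higher than wt on this floored scale, with ko_saline 4 raised to the floor and all wt saline arrays at it. The difference was not called by limma (adjusted p 0.632).

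In the deposited series table, which has no floor, the same probe had log2 values of 4.95 to 5.30 in wt saline, 4.69 to 5.37 in wt OVA, 5.70 to 6.42 in ko saline and 5.56 to 6.12 in ko OVA. No wt array reached the lowest ko array there. With those values limma called ko against wt after saline (1.06, adjusted p 0.0130) and averaged over agents (0.94, 0.000939), and a lower floor also gave a call averaged over agents (2.19, 0.0249). The other Gja5 probe did not show this, with 5.13 to 6.31 in wt against 4.89 to 5.63 in ko. Gja4, another connexin gene of vessels, had a difference of -0.13 ± 0.30 for ko against wt after saline (limma adjusted p 1). The endothelial list given with Cldn5 overlapped between genotypes after both agents, and its part in the Gja5 values was not tested.

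**Figure D4:**
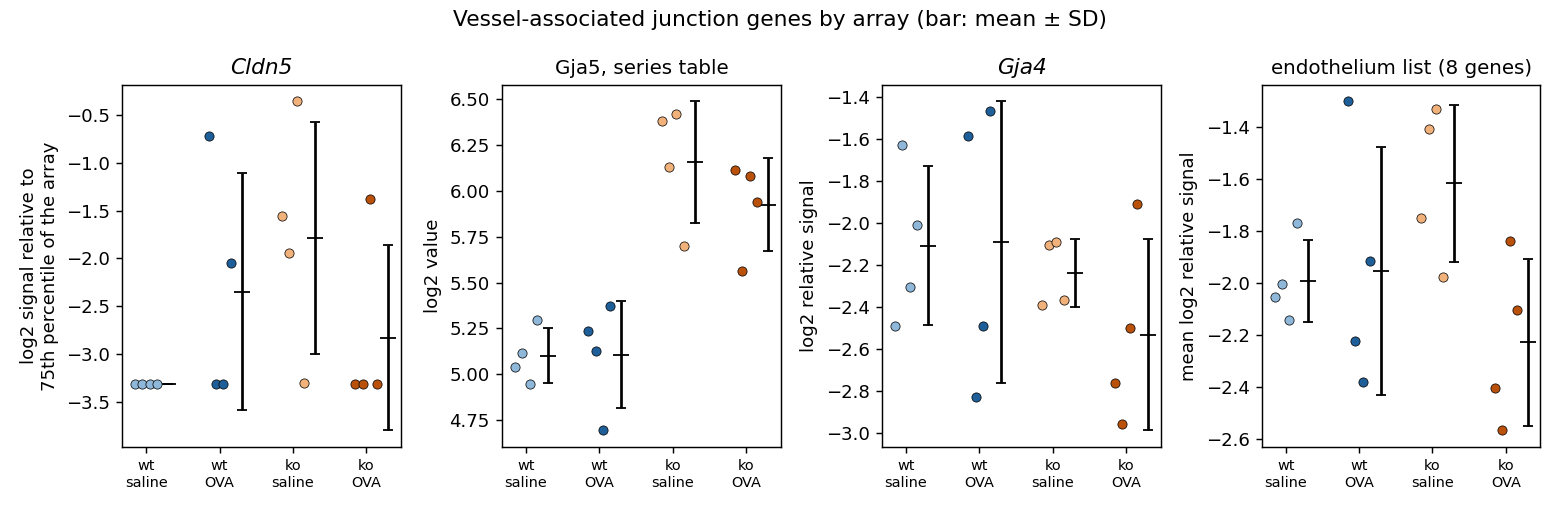
Points are single arrays by group, with the mean ± SD beside them, for Cldn5, Gja5, Gja4 and the mean of 8 endothelial genes, in log2 units. Gja5 is drawn from the deposited series table, where ko arrays (5.56 to 6.42) lie above wt arrays (4.69 to 5.37), and Cldn5 is floored at -3.32.

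No desmosome gene was called. Dsc2, a desmocollin of simple epithelia, had differences with OVA of 0.48 ± 0.21 in wt and 0.40 ± 0.21 in ko, and 0.44 ± 0.15 averaged over genotypes (limma adjusted p 0.0952). Jup, the gene of plakoglobin, had -0.28 ± 0.13 and -0.21 ± 0.13, and the plakophilin gene Pkp1 had -0.68 ± 0.30 in wt and 0.10 ± 0.30 in ko. Pkp2, Pkp3 and Pkp4 lay between -0.16 and 0.14 in both genotypes. The probes of the desmoglein gene Dsg2 disagreed in wt: the one that stood for it gave 0.26 with OVA, and others gave -0.71 and 0.06. They disagreed between genotypes too: for ko against wt after saline the same probes gave, in that order, 0.24, -0.82 and 0.004.

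Epcam, an adhesion molecule that steadies claudins at the membrane, was slightly higher after OVA. In wt it was 3.67, 3.69, 3.48 and 3.89 after saline and 3.88, 4.07, 3.88 and 4.05 after OVA. Values in ko were 3.65, 3.48, 3.71 and 3.65 after saline and 3.82, 4.06, 3.94 and 3.85 after OVA. The ko groups did not overlap, and in wt the array wt_saline 4 lay among the OVA arrays. The difference was 0.29 ± 0.10 in wt and 0.29 ± 0.10 in ko (limma adjusted p 0.145 and 0.256), and 0.29 ± 0.07 averaged over genotypes, or 1.22-fold (0.0226). It was positive in every slide that held both groups of a genotype, from 0.17 to 0.46. The averaged call was lost under 5 of 30 alternatives. These were leaving out ko_saline 2 (0.27, limma adjusted p 0.0502), normexp background correction (0.25, 0.460), median scaling (0.16, 0.751), position as a block (0.28, 0.153), and leaving out wt_OVA 1, wt_OVA 2 and ko_OVA 4 together (0.30, 0.0559). Median scaling gave 0.01 in wt.

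No gene of the adherens junction core was called. Cdh1 (E-cadherin), Ctnna1 and Ctnnb1 (its catenins) and Nectin4 had OVA differences of -0.28 ± 0.47, 0.02 ± 0.13, 0.11 ± 0.11 and 0.15 ± 0.16 in wt. In ko the values were 0.12 ± 0.47, 0.03 ± 0.14, 0.19 ± 0.11 and 0.09 ± 0.16. The 95% interval of Cdh1 was wide, reaching from -1.28 to 0.71 in wt, and in ko from -0.88 to 1.11.

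**Figure D5:**
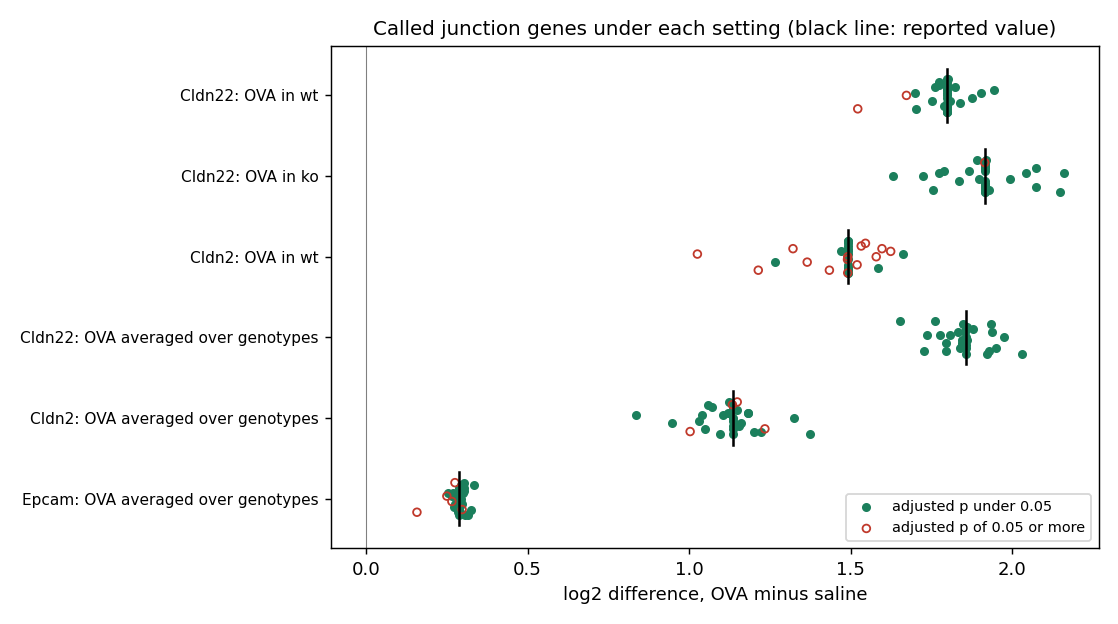
Each point is the log2 difference between OVA and saline for a called junction gene under 1 setting of the analysis, filled where the limma adjusted p is under 0.05. Black lines mark the reported values. Cldn22 averaged over genotypes is filled under all 30 alternatives, whereas Cldn2 in wt is open under 14 of 31.

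Other genes linked to the junction were read from 5 lists. In wt 2.61% of all genes were called with OVA, and 6.46% averaged over genotypes. Of 18 other adhesion receptors, 2 rose with OVA in wt: Cdh26, a cadherin of epithelia in allergic inflammation, by 0.98 ± 0.21, and Jam3, a junctional adhesion molecule, by 0.63 ± 0.14 (limma adjusted p 0.0209 and 0.0330). None of the 18 was called in ko. Averaged over genotypes, Cdh26 and Jam3 were higher with OVA, by 0.97 ± 0.15 and 0.50 ± 0.10 (limma adjusted p 0.00135 and 0.00991). Of 19 polarity and scaffold genes, Tjap1, whose product binds junction scaffolds, fell in wt by 0.49 on the log2 scale (0.0446) and none rose. Of 9 plakin and hemidesmosome genes, Evpl and Ppl, which crosslink the desmosome to keratin, were lower with OVA averaged over genotypes, by -0.59 ± 0.15 and -0.41 ± 0.11 (0.0288 and 0.0396). Of 15 transcription factors of the epithelial state, Grhl1 was lower in that comparison (-0.44 ± 0.10, adjusted p 0.0242), and of 12 actomyosin genes, Mylk was lower (-1.17 ± 0.30, 0.0340). The median of the 12 was 0.06. Of 11 fibroblast and smooth muscle genes the median was -0.56 in that comparison, and Cnn1 alone was called (-2.31, limma adjusted p 0.0145). Their part in the Mylk value was not tested.

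Markers of secretory and ciliated cells changed with OVA. All 10 mucous cell genes were higher with OVA averaged over genotypes, and their mean was 2.29 to 3.06 in wt saline, 4.77 to 5.73 in wt OVA, 2.28 to 2.47 in ko saline and 4.02 to 5.79 in ko OVA. Of 9 ciliated cell genes 7 were higher, and of 7 club cell genes 2 were lower. Ranges of the ciliated list were 4.36 to 4.71 and 4.84 to 5.14 in wt, and 4.06 to 4.32 and 4.74 to 4.77 in ko, for saline and OVA. The mean of the 10 striated muscle genes ran from -3.06 to 4.26 over the arrays, that of 4 thyroid genes from -2.80 to 0.94 and that of 5 fat cell genes from -3.01 to 2.39, and none of these genes was called. The part of mucous and ciliated cells in the rise of Cldn22, Cldn2 and Epcam was not tested.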

How the data were processed

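Each of 16 samples gave 0.5 ug of RNA for Cy3 labelling and a one-colour array, per the labels' protocols. The authors' scanner files give intensity with the background already subtracted. Their headers name Feature Extraction 10.5.1.1, whereas 10.1 is given per the submitters' processing notes. Log2 values of the deposited series table rank probes as the median spot signal does (Spearman's rho at least 0.99995). Its array medians were 5.90 to 5.94. Its centring is not given in the sources used here.

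Control spots and flagged spots were left out and repeated spots averaged. Each array was scaled by its 75th percentile, then floored at -3.32 (log2). That floor is the dimmest signal still above background on the array where this limit is highest. Probes above background on 4 or more of 16 arrays were kept (25615 of 41174), and the brightest stood for each gene. RefSeq accessions gave symbols to 24844 probes. limma 3.58.1 under R 4.3.3 fitted 1 mean per group over all 16 arrays, with Benjamini-Hochberg adjustment over 18566 genes. Figures used matplotlib 3.10.9. The number of arrays limits the precision.

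Values per array are given for members called in any of 7 comparisons and, where fewer than 4 were called, for the up to 4 with the smallest p. Up to 4 called genes per other list were named. Members and lists were chosen with earlier results of these data known. The alternatives were normexp background correction on the median spot signal (no mean is in the files), median or quantile scaling, other filters and floors, the mean of probes, the series table, smaller fits, slide, position and replicate blocks, array weights, and leaving arrays out. Promoter sequences were matched for 39 of 57 members. Some genes that match the symbol rule are not reported here and are left out of every count of members, but they stayed in the fit over all genes.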

Additional observations from a re-analysis of the deposited data

Results flagged for a closer look

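In 10 of 51 groups of 4 arrays, over 14 genes, 1 array stood apart from the other members of its group. Chance flags about 1 in 20 groups where values are free to vary. That rate does not apply to the dim members: in 5 of these groups the other 3 arrays all sit at the floor, which fixes the gap, so no excess is read from the count.

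Among members well above background on all arrays, Cldn2 was 0.0558 on wt_OVA 3, where the other wt OVA arrays lay between -0.49 and -0.41. Gja1 was -1.04 on wt_saline 1, above the other 3 (-2.12 to -1.95).

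The dim members had an array above the rest. On ko_OVA 3, Cldn18 was -3.05, Cldn5 was -1.38 and Gjb6 was -3.05. On ko_OVA 4, Gja5 was -3.12 and Gjb1 was -2.42, and neither spot was well above background on that array. Cldn18 was -2.20 on ko_saline 3, and Gjb6 was -2.83 on wt_saline 1 and -2.31 on wt_OVA 1.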

How the results depend on the processing

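The count of 2 junction genes called with OVA in wt fell to 1 with normexp background correction, with slide as a fixed block and without wt_OVA 1, wt_OVA 2 and ko_OVA 4 together (chosen after seeing the data), and to 0 with arrays scaled to their median or with their position as a block. In ko the count of 1 became 0 with the groups compared alone and 2 with array weights. Averaged over genotypes, 3 became 1 with median scaling, the position block or those 3 arrays left out, and 6 with array weights. For ko against wt after saline, 0 became 1 with the series table (Gja5) and with array weights (Gja1), and averaged over agents it became 1 with the lower floor and with the series table (Gja5). Leaving out each array in turn gave 1 to 2 calls in wt, 1 to 2 in ko, 2 to 5 averaged over genotypes (5 without ko_saline 4) and 0 to 0 in each of the other 4 comparisons.

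Of the single values tried, 2 reversed: Marveld2 in ko against wt after OVA (0.11, median scaling) and Cldn18 there (0.0898, those 3 arrays left out). Median scaling moved the median of all genes to -0.25 in wt, 0.32 for ko against wt after OVA, 0.28 in the interaction, -0.10 for OVA averaged over genotypes and 0.18 for ko averaged over agents. With it the genes called over the whole array went from 485 to 100 in wt and from 1200 to 379 averaged over genotypes, and the share of them higher after OVA from 59.6% to 39% and from 57.6% to 30.9%. The cause was not tested.

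Replicate numbers gave no sign of a pairing: arrays of the same number correlated in their deviations between -0.41 and 0.41 (median -0.008). For arrays of different numbers the range was -0.57 to 0.48 (median -0.015). Such correlations cannot exclude a pairing in the design. The replicate block gave 1 call in wt in place of 2, Cldn22, with Cldn2 at 1.49 (limma adjusted p 0.0785). Signal over background limits Cldn5, Cldn18, Gja5, Gjb1 and Gjb6, for which values at the floor have no order.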
